A study of Homo sapiens with 6 samples.

Results

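Host genes of small RNAs were examined among the long noncoding RNAs (lncRNAs) of PANC-1 cells, a human pancreatic ductal carcinoma line. The members are the rows of the deposited lncRNA table whose symbol starts with SNHG and a digit (small nucleolar RNA hosts) or starts with MIR and ends with HG (microRNA hosts). They number 69 of 14145 rows, of which 14 are snoRNA hosts and 55 are microRNA hosts. GAS5 and DANCR, which the selection also names, are not analysed here. All cells were a gemcitabine-resistant derivative of the line, and 3 libraries carried a short hairpin RNA against SRSF3 (knockdown), against 3 control libraries. SRSF3 is a splicing factor of the serine and arginine-rich family. The labels describe 1 cell line, do not say whether the resistant or knockdown cells were clones or pools, and name no separate cultures, so a p-value here reflects how far these libraries vary among themselves, and that variation may be technical.

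A host gene is transcribed and spliced like other genes, but the product that is known to act is often a small RNA cut from an intron or an exon. Small nucleolar RNAs of the C/D class (SNORD) guide ribose methylation of ribosomal RNA, and those of the H/ACA class (SNORA) guide its pseudouridylation. The spliced remainder of many snoRNA hosts is a short-lived cytoplasmic RNA that nonsense-mediated decay removes, and many such hosts start with a C inside a run of pyrimidines, a feature shared with ribosomal protein genes. MicroRNA hosts give rise to hairpins that Drosha and Dicer process into mature microRNAs, which pair with target messages through their seed. The values below are those of the host RNAs. The small RNAs themselves were not measured.

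Sequences were taken from RefSeq (GRCh38.p14), in which 66 of the 69 members had an entry under their symbol. MIRLET7DHG, MIR583HG and MIR7515HG had none. The first set shows where transcription starts in 4 snoRNA hosts, with 15 bases before the start and 30 from it, and capitals mark the run of pyrimidines from the first base. SNHG12 lies at chr1:28581844-28581888 on the minus strand, SNHG19 at chr16:2155329-2155373 on the minus strand, SNHG4 at chr5:139274086-139274130 on the plus strand and SNHG18 at chr5:9546185-9546229 on the plus strand. MIRLET7BHG, the start of which holds a run that opens with T, is at chr22:46085982-46086026 on the plus strand, and SNHG10, at chr14:95534843-95534887 on the minus strand, has no such run.
SNHG12: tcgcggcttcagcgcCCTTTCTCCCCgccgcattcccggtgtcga
SNHG19: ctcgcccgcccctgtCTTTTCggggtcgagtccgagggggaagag
SNHG4: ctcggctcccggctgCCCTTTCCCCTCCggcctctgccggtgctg
SNHG18: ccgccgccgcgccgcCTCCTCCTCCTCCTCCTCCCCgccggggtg
MIRLET7BHG: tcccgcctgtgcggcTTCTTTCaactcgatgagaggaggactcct
SNHG10: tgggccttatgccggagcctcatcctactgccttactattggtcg

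The pattern searched was a C at the first base followed by at least 4 bases that are each C or T, on the transcribed strand. It was present in 4 of the 8 tested snoRNA hosts with a promoter entry, in 1 of 12 tested microRNA hosts and in 4.04% of 27305 RefSeq promoters of the same length. Among protein-coding snoRNA hosts with an entry, 15 of 37 (40.5%) had it. A match describes the letters at the annotated start and was not tied to any measured start in these cells.

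The second set gives mature microRNAs of the hosts with the highest values, and of MIR4458HG because its microRNA has a seed found in another host. Capitals mark the seed (bases 2 to 8). let-7a-5p (chr22:46112752-46112773) and let-7b-5p (chr22:46113691-46113712) lie in MIRLET7BHG on the plus strand, miR-4458 (chr5:8460933-8460951, plus strand) in MIR4458HG, miR-200c-3p (chr12:6963742-6963764) and miR-141-3p (chr12:6964155-6964176) in MIR200CHG on the plus strand, miR-4435 (chr2:111321061-111321082, minus strand) in MIR4435-2HG and miR-31-5p (chr9:21512158-21512178, minus strand) in MIR31HG.
let-7a-5p: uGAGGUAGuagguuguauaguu
let-7b-5p: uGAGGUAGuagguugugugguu
miR-4458: aGAGGUAGguguggaagaa
miR-200c-3p: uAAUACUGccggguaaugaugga
miR-141-3p: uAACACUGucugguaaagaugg
miR-4435: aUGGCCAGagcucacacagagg
miR-31-5p: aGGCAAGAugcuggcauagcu

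The seeds of let-7a-5p, let-7b-5p and miR-4458 are identical, so 2 host lncRNAs carry microRNAs of 1 seed. The seeds of miR-200c-3p and miR-141-3p differ by U4C, with positions counted from 1 at the 5′ end of the microRNA. MIR222HG, below 1 FPKM here, carries miR-221-3p and miR-222-3p, whose seeds are identical too.

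Values are FPKM, the fragments of a gene divided by its length and by the total of the library, which allow levels of different genes to be compared per length. FPKM values of 4630 of the 4631 lncRNA rows above 0 in at least 3 libraries fell on the steps of whole fragments, and the recovered totals ran between 24903382 and 27300517 fragments in knockdown libraries, against 24558238 to 27351642 in control libraries. Targeted SRSF3 itself had 36.9, 37.1 and 38.6 FPKM in the libraries labelled knockdown, against 37.0, 39.6 and 39.2 FPKM in control libraries. The groups overlapped, with a log2 change of -0.04 (95% interval -0.15 to 0.07, limma adjusted p = 0.612; exact two-sided permutation p = 0.3, where 0.1 is the smallest possible). The labelled knockdown was therefore not visible in this gene's RNA, and every direction below is between libraries as labelled. Of the duct and epithelial markers, KRT8, KRT18, KRT19, EPCAM and SOX9 were between 109 and 2067 FPKM in every library, while KRT7 and MUC1 were below 1 FPKM. Leukocyte, endothelial, fibroblast, acinar and islet markers (14 genes) summed to 0.557 to 0.680 FPKM in knockdown and 0.597 to 1.28 FPKM in control libraries, and 5 of them, PTPRC included, were listed at 0 in all 6. Mitochondrial genes took 32.1% of the mRNA table's summed FPKM in knockdown library 1 and 25.6% to 27.5% in the other 5 libraries. Knockdown libraries differed more among themselves than control libraries did (chi-square per gene of 10.1 to 29.3 between knockdown pairs and 3.17 to 6.32 between control pairs, with 1 given by counting alone). Mitochondrial genes were not set aside in that comparison, so it is not separate from their share.

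Most of the members' RNA came from a few snoRNA hosts, and no member differed between knockdown and control at the threshold of the main test. Of the 14 snoRNA hosts, 11 had a mean of at least 0.1 FPKM and were tested, 9 of these had a mean of at least 1 FPKM and 5 of at least 5 FPKM. Among the 55 microRNA hosts, 13 were tested, 4 reached a mean of 1 FPKM and none reached 5 FPKM, MIRLET7BHG being the highest. Together the members made up 3.91% to 4.44% of the summed lncRNA FPKM in knockdown libraries and 4.22% to 4.35% in control libraries. SNHG12 alone was 41.0% to 44.1% of the summed snoRNA host FPKM in knockdown libraries and 43.5% to 45.2% in control libraries.

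At a Benjamini-Hochberg adjusted p under 0.05 (limma on log2(FPKM + 0.1)), 0 of the 24 tested members and 0 of all 3092 tested lncRNA rows (0%) passed. The share of rows at an unadjusted p under 0.05 was 9.18% over the table, and 3 of the 24 members were there, SNHG10 and MIRLET7BHG with higher values in knockdown (4.98% of rows) and MIR31HG with lower ones (4.2% of rows). Higher values in knockdown were found for 7 of the 11 tested snoRNA hosts, with a median log2 change of 0.14 that was 0 after quantile normalization. That 0 equals the value of SNHG12 in this setting. Quantile normalization gives a change of 0 to any row of the same rank in every library, so nothing is read from the exact value. Of the 13 tested microRNA hosts, 6 were higher and 7 lower, with a median of -0.09. That median changed sign with single choices, being 0.08 without control library 1, 0.03 with the stricter filter and 0.02 after quantile normalization, and it reached -0.20 without control library 3 or knockdown library 3. Over all tested lncRNA rows 1492 were higher and 1600 lower, with a median of -0.02. A second fit on the recovered fragments (limma voom) weighs each value by its depth and called 56 of 3055 rows (1.83%), among them MIRLET7BHG and MIR4435-2HG, which were 2 of the 13 microRNA hosts and the members called out of 24. Both were higher in knockdown, a direction in which 1.41% of rows were called. The voom fit took the variance of a row largely from other rows. For SNHG12 its SE was 0.0253, against 0.0672 in the main fit, so voom p-values rest little on the spread of a row's own libraries.

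**Figure D1:**
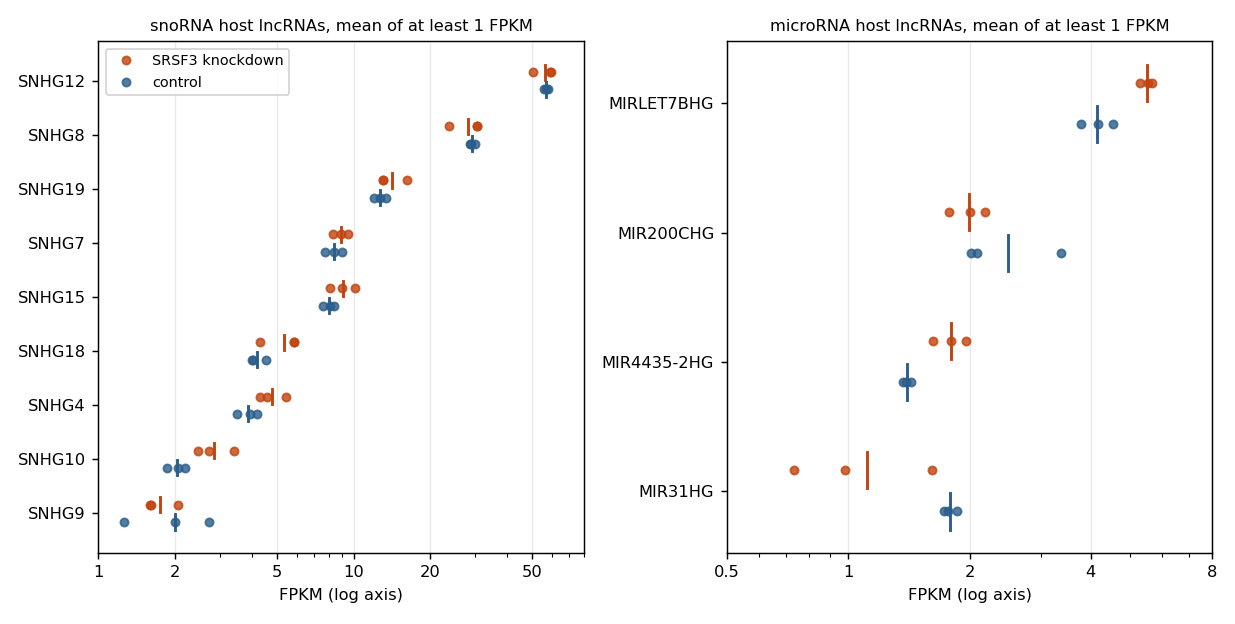
FPKM on a log axis in each library for the 9 snoRNA hosts (left) and 4 microRNA hosts (right) with a mean of at least 1 FPKM. Each point is a library, knockdown above control within a gene, and vertical bars are group means. The groups separate for SNHG4, SNHG10, MIRLET7BHG, MIR4435-2HG and MIR31HG and overlap for the others.

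Among the snoRNA hosts, SNHG12, the host of SNORD99, SNORA61, SNORA44 and SNORA16A, was the most abundant. It had 50.4, 58.9 and 59.5 FPKM in knockdown libraries, against 57.7, 56.8 and 55.9 FPKM in control libraries. Control libraries lay within 2 FPKM of each other, and knockdown library 1 lay below them while libraries 2 and 3 lay above. Group means were 56.3 ± 5.10 FPKM in knockdown and 56.8 ± 0.905 FPKM in control (SD, n = 3 each), a log2 change of -0.02 with a 95% interval of -0.17 to 0.14. Without knockdown library 1 the change was 0.06, on the other side of 0.

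SNHG8, the host of SNORA24, behaved alike across libraries. It had 23.7, 30.4 and 30.5 FPKM in knockdown libraries, against 28.6, 30.01 and 28.9 FPKM in control libraries. Again knockdown library 1 was the lowest of the 6, and the log2 change of -0.06 (95% interval -0.29 to 0.17) became 0.06 without it. SNHG19, the host of SNORD60, had its highest value in that same library, with 16.2, 13.0 and 13.1 FPKM in knockdown libraries, against 12.7, 13.4 and 12.1 FPKM in control libraries. The groups overlapped (log2 change 0.14, 95% interval -0.10 to 0.38), and the change was 0.04 without knockdown library 1. In the share of mitochondrial RNA knockdown library 1 also stood apart, as given above, and the part of this in the values of SNHG12, SNHG8 and SNHG19 was not tested.

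SNHG7 (SNORA17A and SNORA17B) and SNHG15 (SNORA9) had like levels. SNHG7 was at 8.34, 9.51 and 8.95 FPKM in knockdown libraries, against 7.72, 8.40 and 9.01 FPKM in control libraries, and the groups overlapped (log2 change 0.09, 95% interval -0.13 to 0.32). This change was 0.04 without control library 1, 0.05 without knockdown library 2 and 0.15 without control library 3 or 0.14 without knockdown library 1. SNHG15 was at 8.07, 10.2 and 9.04 FPKM in knockdown libraries, against 8.11, 8.40 and 7.57 FPKM in control libraries. Knockdown libraries 2 and 3 were above all controls and library 1 was not, for a log2 change of 0.17 (95% interval -0.08 to 0.42), or 0.09 without knockdown library 2 and 0.02 after quantile normalization.

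Another 3 of the 11 tested snoRNA hosts had log2 changes near 0.3 or above. SNHG18, the host of SNORD123, had 5.84, 5.82 and 4.28 FPKM in knockdown libraries, against 4.01, 4.53 and 4.03 FPKM in control libraries. Knockdown library 3 lay among the controls, and the log2 change was 0.32 with an SE of 0.15 (limma adjusted p = 0.559). SNHG4, the host of SNORA74A and SNORA74D, had 4.59, 5.41 and 4.31 FPKM in knockdown libraries, against 3.94, 4.19 and 3.49 FPKM in control libraries. Every knockdown library was above every control, by a narrow margin, with a log2 change of 0.29 and an SE of 0.13 (adjusted p = 0.559). SNHG10 had 2.45, 3.39 and 2.71 FPKM in knockdown libraries, against 2.18, 1.85 and 2.05 FPKM in control libraries. These groups did not overlap either, and its mean was 40.6% higher in knockdown, a log2 change of 0.46 with an SE of 0.17 (adjusted p = 0.424, or 0.118 with voom). No RefSeq entry of the snoRNA type lies within the span of SNHG10, nor within those of SNHG21, SNHG22, SNHG27 and SNHG28. These members are called snoRNA hosts by their symbol only. Entries of other guide RNA types were not searched, so they may still host one.

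SNHG9 (SNORA78) varied widely among controls, with 2.05, 1.603 and 1.595 FPKM in knockdown libraries, against 1.26, 1.99 and 2.72 FPKM in control libraries. Knockdown values lay inside the range of the controls, and the log2 change of -0.12 (95% interval -0.75 to 0.51) became 0.13 without control library 3. Its values rest on 17 to 41 fragments per library. SNHG21 and SNHG25 (SNORD104) had means of 0.594 and 0.418 FPKM over the 6 libraries on at most 21 fragments, and their intervals spanned more than 1 log2 unit. SNHG22 was below the minimum level with a mean of 0.0198 FPKM, and SNHG27 and SNHG28 were listed at 0 in all 6 libraries.

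Of the microRNA hosts, MIRLET7BHG was the most abundant, and it had the smallest p of the tested members. RefSeq places MIRLET7A3, MIRLET7B, MIR3619 and MIR4763 within it. The let-7 microRNAs whose seeds are printed above are known as repressors of growth-promoting messages such as those of the RAS family. MIRLET7BHG had 5.55, 5.69 and 5.29 FPKM in knockdown libraries, against 4.53, 4.16 and 3.77 FPKM in control libraries. These values came from 814, 811 and 827 fragments in knockdown libraries, against 637, 609 and 591 in control libraries. The lowest knockdown library was above the highest control on both scales. Group means were 5.51 ± 0.201 FPKM in knockdown and 4.15 ± 0.378 FPKM in control (SD, n = 3 each), 32.6% higher in knockdown, with a log2 change of 0.40 and an SE of 0.11.

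The call for MIRLET7BHG depended on the test. The unadjusted limma p of 0.0077 was number 75 of 3092 rows and gave an adjusted p of 0.309. With voom on the fragments the log2 change was 0.41 (95% interval 0.26 to 0.56) and the adjusted p 2.6e-05. When each of the 6 libraries was left out in turn, the voom log2 change stayed between 0.34 and 0.47 and the adjusted p between 5.23e-06 and 0.0207. With the same libraries left out of the main limma fit, the adjusted p lay between 0.421 and 0.592. With the replicate block the limma adjusted p was 0.477. When both tables were adjusted in a single limma fit, in which 3.59% of lncRNA rows were called, the adjusted p was 0.0249, and MIRLET7BHG was the member called there.

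MIR4435-2HG had 1.96, 1.63 and 1.802 FPKM in knockdown libraries, against 1.39, 1.43 and 1.37 FPKM in control libraries. Controls were tightly grouped and all knockdown libraries lay above them, with a log2 change of 0.34 and an SE of 0.16 (limma adjusted p = 0.573). Its gene is long, so the values rest on 448 to 659 fragments, and the voom adjusted p was 0.00404. That call was lost without control library 2 (voom adjusted p = 0.0509) and without control library 3 (0.0807). A near-identical copy of the gene, the lncRNA CYTOR, is also on chromosome 2, and the authors' counting could have split reads between them, so the level of each is uncertain. CYTOR, looked up after its value was seen, had 0.988, 0.983 and 0.988 FPKM in knockdown libraries, against 0.603, 0.809 and 0.721 FPKM in control libraries. Its groups did not overlap, and its log2 change was 0.43 (limma adjusted p = 0.573, voom adjusted p = 0.000514).

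MIR31HG was lower in every knockdown library than in every control library. It carries miR-31, a microRNA studied as both a promoter and a suppressor of tumours depending on the tissue. It had 0.734, 1.62 and 0.983 FPKM in knockdown libraries, against 1.86, 1.73 and 1.77 FPKM in control libraries. Control libraries were close together and knockdown libraries spread widely, with knockdown library 2 just under the lowest control. The SD was 3.63% of the mean in control libraries, where counting alone gives 17.1%. In knockdown libraries it was 41.0%, where counting gives 21.7%. Controls lay closer together than counting alone gives, so nothing is read from their closeness. The log2 change was -0.70 with an SE of 0.27 (limma adjusted p = 0.451, voom adjusted p = 0.292). It was -0.47 without knockdown library 1 and -0.99 without knockdown library 2. These values are 14, 30 and 20 fragments in knockdown libraries, against 34, 33 and 36 in control libraries. In bulk RNA, fewer cells with the transcript and less of it in each cell cannot be told apart.

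MIR200CHG carries miR-200c and miR-141, which are known to hold epithelial cells in their state by repressing ZEB1 and ZEB2. It had 2.01, 2.18 and 1.78 FPKM in knockdown libraries, against 3.37, 2.01 and 2.09 FPKM in control libraries. Control library 1 was high and the other libraries of both groups overlapped, and the log2 change was -0.28 (95% interval -0.78 to 0.23, adjusted p = 0.732), or -0.05 without that library. Each value rests on 17 to 29 fragments. MIR34AHG, the host of the p53 target miR-34a, had 0.336, 0.328 and 0.274 FPKM in knockdown libraries, against 0.351, 0.459 and 0.462 FPKM in control libraries. Like MIR31HG it did not overlap, and its log2 change was -0.34 (adjusted p = 0.725, or 0.298 with voom).

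Across both classes 7 of the 24 tested members had groups that did not overlap, while 15.6% of the tested lncRNA rows did. SNHG4, SNHG10, MIRLET7BHG and MIR4435-2HG were above all controls (7.99% of rows), and MIR31HG, MIR34AHG and MIR4453HG were below all controls (7.57% of rows). The other tested microRNA hosts, MIR222HG, MIR600HG, MIR4713HG, MIR4458HG, MIR503HG, MIR210HG and MIR762HG, overlapped and had means between 0.159 and 0.732 FPKM on 2 to 67 fragments per library. MIR4458HG, which shares its seed with the let-7 host, had a log2 change of 0.02 with a wide interval (-0.69 to 0.73).

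**Figure D2:**
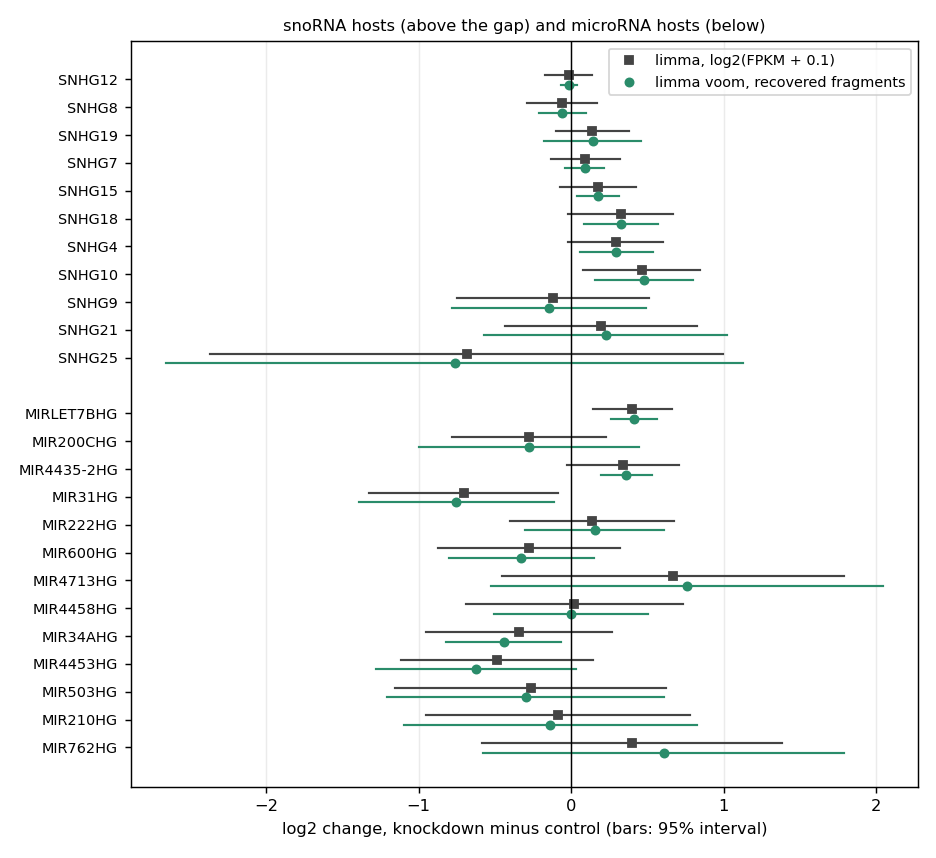
Log2 change, knockdown minus control, of the 24 tested members with 95% intervals, ordered by level within each class. Squares are the limma fit on log2(FPKM + 0.1) and circles the voom fit on recovered fragments, whose intervals take their spread largely from other rows. Both place MIRLET7BHG near 0.4, with the intervals of MIRLET7BHG and SNHG10 above 0 and that of MIR31HG below 0. Intervals are not adjusted for the number of rows, and they widen towards the low genes.

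The remaining 42 microRNA hosts had mean values below 0.1 FPKM. Of these, 22 were listed at 0 in all 6 libraries, MIR22HG and MIR217HG among them, and 20 had a value above 0 in at least 1 library with means up to 0.0709 FPKM. MIR193BHG, the highest of these, had 0.0387, 0.126 and 0.0908 FPKM in knockdown libraries, against 0.0337, 0.0517 and 0.0846 FPKM in control libraries. MIR155HG, the host of an immune-cell microRNA, had a mean of 0.0355 FPKM on at most 3 fragments per library. The 20 low hosts were kept out of the main test by a minimum set on FPKM and not on fragments. Of these, MIR29B2CHG had the most fragments recovered, 17 to 30 per library, while MIR181A1HG and MIR2052HG had at most 1. For hosts above 0 in fewer than 3 libraries no fragments were recovered. With no filter, 0 of 55 microRNA hosts and 6 of all 14145 lncRNA rows were called. An unadjusted limma p under 0.05 was then found for 4 of the 55 and for 436 of all rows. An exact 0 can be a failed estimate, as ZNHIT3, a snoRNP assembly factor in general use, was also listed at 0 in all 6 libraries of the mRNA table, and nothing is read from the 22 hosts listed at 0.

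**Figure D3:**
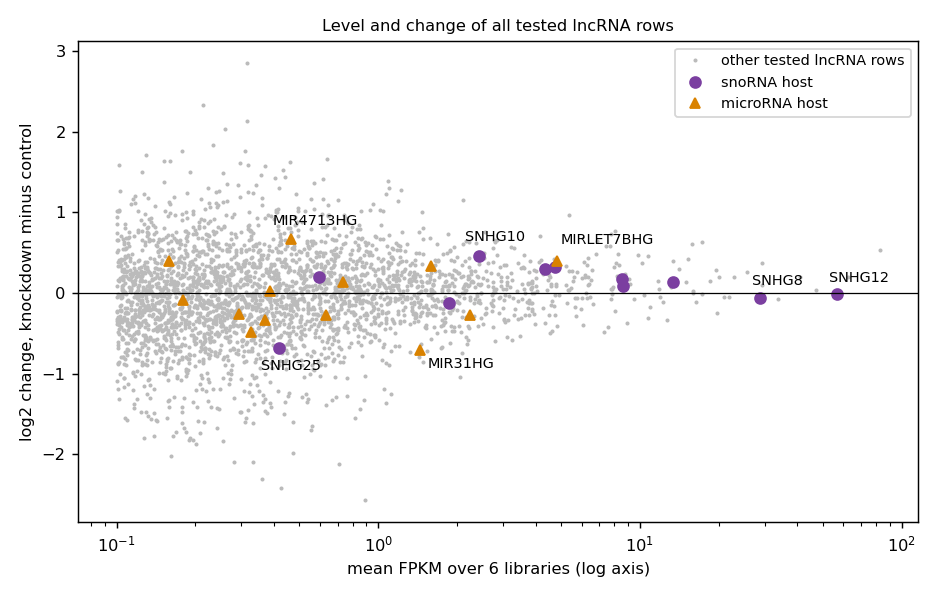
Log2 change, knockdown minus control, against mean FPKM over 6 libraries (log axis) for all 3092 tested lncRNA rows. Large points are the 11 snoRNA hosts and triangles the 13 microRNA hosts. SNHG12 and SNHG8 sit at the high end near 0, and MIR31HG (-0.70) and SNHG25 (-0.68) are the lowest members.

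The spread between replicates was set against that of counting alone. For SNHG12 the SD was 9.06% of the mean in knockdown libraries and 1.59% in control libraries, where counting gives about 1.42% in both groups. For SNHG8 it was 13.7% in knockdown libraries, against 2.49% in control libraries, where counting gives 3.85% and 3.79%. The control spread of SNHG8 was therefore below that of counting. Of the 24 tested members, 17 (70.8%) had the larger relative SD in knockdown, as did 56.9% of 3061 tested lncRNA rows above 0 in both groups. MIRLET7BHG went the other way, with 3.66% in knockdown and 9.1% in control, both near or above the 3.5% and 4.04% of counting.

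**Figure D4:**
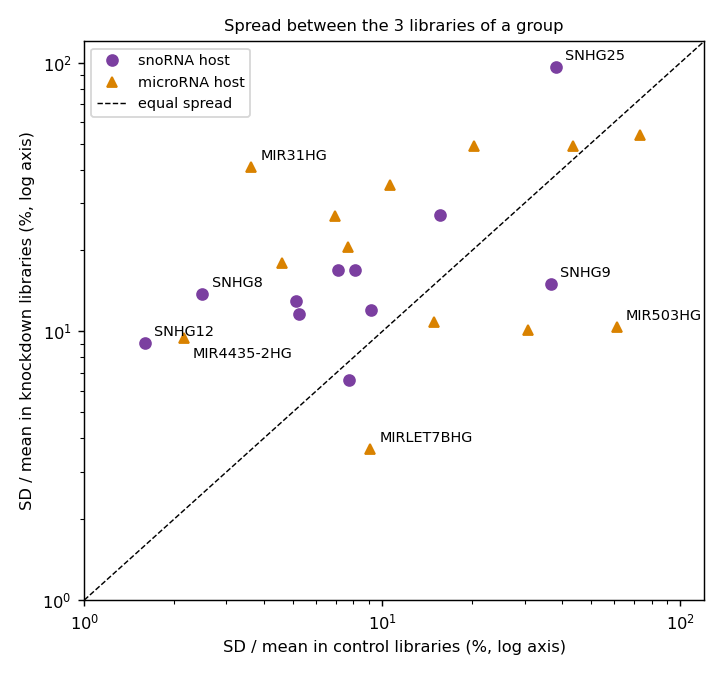
SD as a percentage of the mean over the 3 knockdown libraries (vertical, log axis) against that over the 3 control libraries (horizontal, log axis) for the 24 tested members. Points above the dashed line, 17 of 24, spread more among knockdown libraries. SNHG12, SNHG8 and MIR31HG are far above it and MIRLET7BHG is below it. For SNHG8 and MIR31HG the control spread is below that of counting alone.

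Protein-coding genes that overlap a named member, or start within 1000 bases of its start, were read from the mRNA table. SEMA5A, which encodes a semaphorin axon-guidance protein, starts head-to-head with SNHG18. It had 2.62, 3.17 and 3.05 FPKM in knockdown libraries, against 3.99, 4.13 and 3.67 FPKM in control libraries. All knockdown libraries were below all controls, and SEMA5A fell (log2 change on the FPKM + 1 scale -0.32, SE 0.07, limma adjusted p = 0.0142), in a table in which 16.8% of genes were called and 5.91% were lower. SNHG18, at 0.32, pointed the other way without passing the test. TRAF7, a signalling ubiquitin ligase head-to-head with SNHG19, had 26.1, 29.6 and 27.1 FPKM in knockdown libraries, against 24.3, 24.97 and 23.4 FPKM in control libraries. The groups did not overlap, and the adjusted p was 0.0565. GLRX5, an iron-sulfur cluster protein head-to-head with SNHG10, had a log2 change of 0.11 (adjusted p = 0.214). TRNAU1AP, whose span overlaps SNHG12, had one of -0.02 (adjusted p = 0.825), and DIPK1B, listed under its older symbol FAM69B and overlapping SNHG7, one of 0.02 (adjusted p = 0.938). IFNE, which overlaps MIR31HG, was at most 0.248 FPKM and was not tested, and MATR3, which shares its start with SNHG4, is not analysed here. The sources used here do not give the use of strand in counting, so reads of overlapping genes on opposite strands cannot be told apart. SNHG4 and MATR3 overlap on the same strand, so reads from their shared part cannot be told apart under any strand setting. The level of SNHG4 is uncertain for that reason.

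Genes that act on snoRNAs and microRNAs, or host them in protein-coding form, were followed in the mRNA table as 5 lists. Of the 22 tested snoRNP proteins and assembly factors, 3 rose and none fell, with a median log2 change of 0.08, against 1179 genes (10.9%) that rose, 640 that fell and a median of 0.02 over all 10823 tested. RUVBL2, an ATPase of the complex that assembles snoRNPs, had 78.3, 77.4 and 69.5 FPKM in knockdown libraries, against 59.1, 58.9 and 54.5 FPKM in control libraries. It rose by 0.38 on the log2 scale (adjusted p = 0.00347), as did its partner RUVBL1, by 0.32 (0.00369). The C/D core protein NOP56 had 82.5, 71.2 and 69.8 FPKM in knockdown libraries, against 63.7, 63.4 and 61.6 FPKM in control libraries, and rose by 0.24 (adjusted p = 0.0325, or 0.0893 after quantile normalization). Every knockdown library exceeded every control for these 3 genes. SNU13, which binds the snoRNA kink-turn, had a log2 change of 0.18 (adjusted p = 0.0588).

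Among 19 tested genes of nonsense-mediated decay 4 rose and none fell, with a median of 0.06, where 10.9% of all tested genes rose and 5.91% fell. The same counts were found after median scaling and after quantile normalization. RUVBL1 and RUVBL2 belong to this list too, so that 2 genes are particular to it. UPF1, the helicase at the centre of the pathway, had 47.0, 48.9 and 45.1 FPKM in knockdown libraries, against 40.7, 39.4 and 36.8 FPKM in control libraries. It rose by 0.27 (limma adjusted p = 0.0109), and DHX34, a helicase that acts on UPF1, rose by 0.32 (0.012). The other 15 genes, including UPF2, SMG1 and the exon junction proteins, did not pass.

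Protein-coding snoRNA hosts, mostly ribosomal protein and translation genes, had 7 of 47 tested members that rose and none that fell, where 10.9% of all tested genes rose and 5.91% fell. Their median was 0.09, with 40 members higher in knockdown, against 6002 of 10823 tested genes. After quantile normalization the list had 2 members that rose, 2 that fell and 23 higher, with a median of -0.0023. EEF2, the translocation factor of translation, had 1309, 1289 and 1150 FPKM in knockdown libraries, against 1074, 1054 and 992 FPKM in control libraries. The groups were apart, with a log2 change of 0.26 (limma adjusted p = 0.0496, just under the threshold). RPL17 had 9.58, 9.43 and 10.1 FPKM in knockdown libraries, against 7.03, 5.84 and 6.998 FPKM in control libraries, and rose by 0.49 (adjusted p = 0.0021). RPL7A, RPL23A, RPL13, RACK1 and NOP56 also rose, by 0.21 to 0.34. After quantile normalization RPL17 and RPL7A passed, while EEF2 (0.06, adjusted p = 0.303), RPL13 (0.0512), RACK1 (0.0729), RPL23A (0.127) and NOP56 (0.0893) did not. After median scaling EEF2 (0.0593), RPL13 (0.0528) and RACK1 (0.0558) did not pass. Ribosomal protein genes have near-identical copies in the genome, so their levels are uncertain. RPL17 and RPL7A, which passed in each scaling, were far below the other ribosomal protein genes that rose. RPL7A averaged 4.45 FPKM in knockdown and 3.32 FPKM in control libraries. RPL13 averaged 219 and 189 FPKM, and RPL23A 100 and 85.2 FPKM. NOP56 stands in this list and in that of the snoRNP proteins.

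Of 22 tested genes of microRNA processing and Argonaute function, 2 rose and 1 fell, with a median of 0.02, where 10.9% of all tested genes rose and 5.91% fell. The median was -0.0038 after median scaling and -0.03 after quantile normalization. TARBP2, a partner of Dicer, had 12.7, 14.2 and 13.3 FPKM in knockdown libraries, against 11.0, 11.0 and 10.9 FPKM in control libraries. It rose by 0.27 (limma adjusted p = 0.00984), and KHSRP, an RNA-binding protein that promotes the maturation of let-7, rose by 0.21 (0.037, or 0.0502 after quantile normalization). TNRC6C, a scaffold that joins Argonaute to mRNA decay, had 4.76, 4.75 and 4.64 FPKM in knockdown libraries, against 6.13, 5.71 and 5.52 FPKM in control libraries, and its log2 value fell by 0.25 (adjusted p = 0.0173). DROSHA, DICER1 and AGO2 did not pass, with log2 changes of -0.02, -0.01 and 0.14.

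Among 27 tested protein-coding microRNA hosts none rose and 3 fell, with a median of -0.01, where 10.9% of all tested genes rose and 5.91% fell. SREBF1, the sterol regulator that hosts miR-33b, had 25.1, 26.5 and 25.3 FPKM in knockdown libraries, against 35.0, 35.1 and 33.0 FPKM in control libraries. It fell by 0.41 on the log2 scale (limma adjusted p = 0.000906), with no overlap between groups. PANK3, a pantothenate kinase that hosts a miR-103a gene, fell by 0.34 (adjusted p = 0.019), and SMC4, a condensin subunit that hosts miR-15b and miR-16, fell by 0.25 (0.0364). Over the 5 lists 17 of 133 tested genes were called, 13 higher and 4 lower, in a table in which 16.8% of genes were called. The balance of directions depended on the scaling, with 10 higher and 5 lower after median scaling and 7 higher and 8 lower after quantile normalization; over all tested genes it was 1179 higher and 640 lower as deposited, 930 and 805 after median scaling, and 817 and 808 after quantile normalization. The count of 17 lay between 6 (without control library 3) and 36 (without knockdown library 3) when a library was left out; it was 9 without control library 1, 7 without control library 2 and 9 without knockdown library 2.

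**Figure D5:**
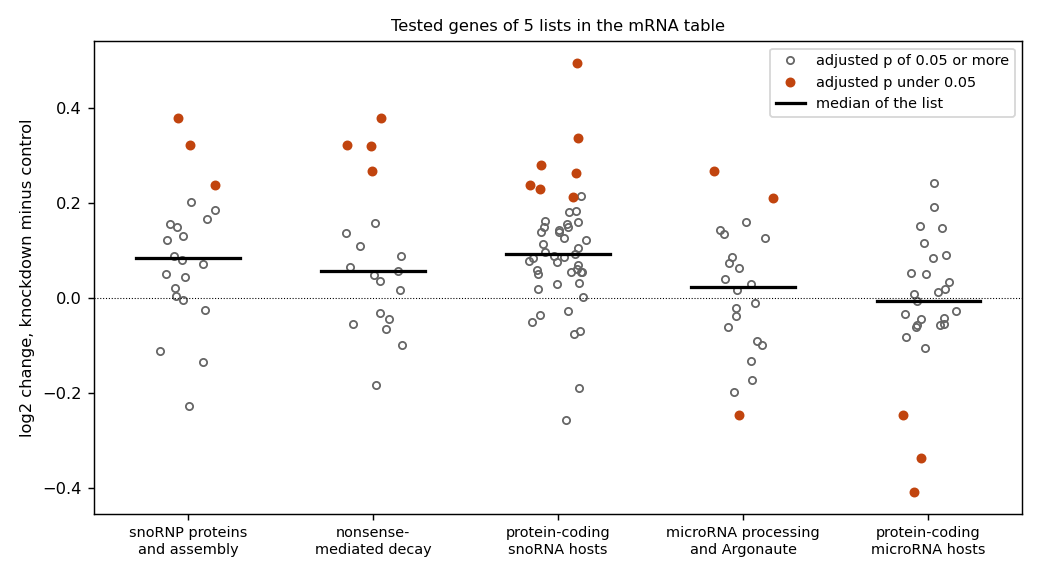
Log2 change, knockdown minus control, on the log2(FPKM + 1) scale for the tested genes of 5 lists in the mRNA table. Filled points are genes with a limma adjusted p under 0.05 and horizontal bars are list medians, which run between -0.01 and 0.09; that of protein-coding snoRNA hosts is -0.0023 after quantile normalization. Called genes lie above 0 in the first 3 lists, on both sides among microRNA processing genes and below 0 among protein-coding microRNA hosts.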

How the data were processed

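RNA of 6 libraries was sequenced, 3 labelled SRSF3 knockdown and 3 control. The authors deposited FPKM values per gene symbol in a lncRNA table of 14145 rows and an mRNA table of 19912 rows. The labels' protocols describe a poly-T selected preparation and a stranded rRNA-depleted one; the one behind these values, the genome build, the annotation and the strand setting of the counting were not given in the sources used here. Per the submitters' processing notes, the tools included HISAT2, StringTie, Cuffdiff and edgeR.

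Each table was tested as a whole with limma 3.58.1 in R 4.3.3 (two-sided, empirical Bayes with a trend, p adjusted by Benjamini-Hochberg over all tested rows, threshold 0.05). Rows of the lncRNA table entered as log2(FPKM + 0.1) when their mean reached 0.1 FPKM, those of the mRNA table as log2(FPKM + 1) when it reached 0.5 FPKM; such fold changes understate those of low genes. Whole fragments were recovered from the steps of the FPKM values (tolerance 0.003 fragments; Python 3.11.15) and tested with voom. Scripts were tested on simulated data. Alternatives were another pseudocount, other filters, median scaling, quantile normalization, a robust fit, both tables in 1 fit, voom, a replicate block and each library left out; voom with each library left out was added after seeing the data.

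The text names every member with a mean of at least 1 FPKM, or an unadjusted p under 0.05, with protein-coding genes overlapping or starting within 1000 bases of it, SRSF3, and up to 4 genes of each mRNA list by smallest p; MIR34AHG, CYTOR and some low members and list genes were added after their values were seen. The members and lists were chosen with earlier results of these data known. Intervals of the limma fits cover counting error and spread between these libraries only. Those of voom take the spread largely from other rows and can be too narrow for a row whose own libraries vary more.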

Additional observations from a re-analysis of the deposited data

How the results depend on the processing

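The count of snoRNA hosts called was 0 in the main fit and in every alternative except voom with a library left out, where it ran between 0 and 2 (SNHG12 and SNHG15 without knockdown library 1, SNHG18 without knockdown library 3). MicroRNA hosts called were 2 with voom, between 1 and 2 when a library was left out of voom, and 1 with both tables in 1 fit. The lncRNA rows called were 6 with no filter, 12 with the stricter filter, 56 with voom (38, 28 and 21 without control libraries 1 to 3, and 42, 34 and 62 without knockdown libraries 1 to 3), 1 with the replicate block and 111 with both tables in 1 fit. Pathway genes called in the mRNA table were 17, or 2 with no filter, 10 with both tables in 1 fit, 23 with voom, 23 with the replicate block, and between 6 and 36 with a library left out. The log2 change changed sign for SNHG7 (-0.058) and SNHG19 (-0.0055) under quantile normalization, for SNHG9 without control library 3 (0.13, range -0.40 to 0.13 with a library left out; 0.13 with voom), and without knockdown library 1 for SNHG12 (0.061, range -0.059 to 0.061; 0.063 with voom, adjusted p = 0.0117) and SNHG8 (0.060, range -0.12 to 0.060; 0.060 with voom). The cause was not tested. Libraries of the same number did not deviate together in the lncRNA table (correlations of -0.006, -0.05 and 0.01) and did so weakly in the mRNA table (0.08, 0.04 and 0.28, where 1 of 3 exceeds 0.1), so the replicate block does not stand for a pairing. Low members rest on few fragments, which limits what can be seen of them.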

Other observations

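Some lncRNAs that host small RNAs have names outside the selection. DLEU2, the host of miR-15a and miR-16, had 0.903, 1.08 and 0.983 FPKM in knockdown libraries, against 1.36, 1.28 and 1.22 FPKM in control libraries. The groups did not overlap, and the log2 change was -0.35 (limma adjusted p = 0.581). FTX, an X-linked host of several microRNAs, had 0.282, 0.292 and 0.327 FPKM in knockdown libraries, against 0.402, 0.394 and 0.394 FPKM in control libraries. All knockdown libraries were below all controls, as were those of 7.57% of tested lncRNA rows. The log2 change was -0.31 (limma adjusted p = 0.737), or -0.40 with voom (adjusted p = 0.0443). Voom called 0.426% of rows as lower, and its value is given for FTX because FTX was seen to be called. ZFAS1, a snoRNA host, averaged 6.65 ± 0.691 FPKM in knockdown and 6.13 ± 0.325 FPKM in control libraries (SD, n = 3 each), with overlapping groups. EPB41L4A-AS1, which hosts a snoRNA as well, averaged 3.95 FPKM in knockdown and 3.96 FPKM in control libraries. PVT1, a host of several microRNAs beside MYC, averaged 1.06 ± 0.0448 FPKM in knockdown and 0.893 ± 0.131 FPKM in control libraries, also with overlap.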
